A study of Homo sapiens with 18 samples.

Results

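The 60 genes described here lie on the long arm of human chromosome 7. They were chosen by symbol from a list drawn up with earlier results of these data known, and their change in DU145 cells after knockdown of EMD is taken as a value that chose them, so what they did in DU145 is a description and carries no test. All 60 were found in each of the 3 deposited tables, out of 18445 genes in all 3 tables and 41440 in any. They form 2 blocks: 21 genes from GUSB, which starts at 65960684, to YWHAG in the proximal block near the centromere, and 39 genes from WASL to UBE3C, which ends at 157269372, in the distal block toward the end of the arm (GRCh38). The tables hold 1116 other long-arm genes, which were not chosen and serve as the comparison beside them.

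The study reduced EMD in 3 prostate cancer cell lines and sequenced their RNA. C4-2B is a line of the LNCaP lineage and 22Rv1 comes from a xenograft of a human prostate tumour; both were kept in RPMI-1640. DU145, which came from a metastasis and lacks the androgen response of the others, was kept in DMEM, and all media held serum. Each line had 3 libraries transfected with scramble siRNA (control) and 3 transfected with EMD siRNA (knockdown), with the transfection mix later replaced by fresh medium. The library names of the DU145 knockdown carry "shEMD", which would be a hairpin and not an siRNA, so the reagent in that line is uncertain. The labels give triplicates without saying that they came from separate cultures, so p-values measure the spread between these libraries, which may be technical. Line, batch label and deposited table coincide, and a difference between lines cannot be told apart from a difference between batches.

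EMD, on the X chromosome, encodes emerin, a small membrane protein that tethers the nuclear lamina to chromatin from inside the nuclear envelope. The members share an arm and not a pathway. The proximal block covers the region deleted in Williams syndrome and its flanks; the distal block holds the kinase gene BRAF, the histone methyltransferase gene KMT2C, the imprinted gene MEST and subunits of ubiquitin ligases. Gain of chromosome 7 is a recurrent change in prostate cancer, and the RNA level of many genes follows the number of copies of their chromosome arm. No DNA was measured here: a difference in the number of chromosome arms between cultures and a change in transcription cannot be told apart in these tables.

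Promoter sequences are shown for the extremes of the response in DU145, to set the genes' start regions beside a pattern that followed the chromosome arm. RefSeq (GRCh38.p14) gave 250 bases before to 50 after a start for 50 of the 60 members; CRCP, GTF2I, RHBDD2, POR, NRF1, UBE2H, PODXL, HIPK2, PAXIP1 and NOM1 had no entry. Printed 5′ to 3′ on the gene's strand are the 2 members with an entry that were lowest in DU145 knockdown, AKR1B1 (chr7:134459051-134459350, minus strand) and KMT2C (chr7:152435954-152436253, minus strand), and the 2 that were highest, CUL1 (chr7:148697506-148697805, plus strand) and MEST (chr7:130485925-130486224, plus strand). Capitals mark every match, on either strand, to 1 of 4 motifs. These were the GC box with the letters GGGCGG, the CCAAT box with the letters of its name, the TATA box with the letters TATAAA and the 10-letter NRF1 motif.
AKR1B1: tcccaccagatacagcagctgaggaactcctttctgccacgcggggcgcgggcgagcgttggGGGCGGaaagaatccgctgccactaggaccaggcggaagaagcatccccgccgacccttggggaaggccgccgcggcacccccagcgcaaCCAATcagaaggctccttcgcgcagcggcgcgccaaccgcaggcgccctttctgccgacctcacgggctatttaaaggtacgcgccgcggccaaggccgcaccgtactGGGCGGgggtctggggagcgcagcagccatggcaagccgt
KMT2C: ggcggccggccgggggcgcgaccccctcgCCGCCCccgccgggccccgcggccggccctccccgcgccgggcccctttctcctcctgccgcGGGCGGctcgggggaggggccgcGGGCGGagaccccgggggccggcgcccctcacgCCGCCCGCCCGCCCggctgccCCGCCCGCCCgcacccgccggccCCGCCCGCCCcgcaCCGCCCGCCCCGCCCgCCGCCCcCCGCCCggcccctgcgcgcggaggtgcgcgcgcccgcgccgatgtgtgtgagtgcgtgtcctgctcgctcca
CUL1: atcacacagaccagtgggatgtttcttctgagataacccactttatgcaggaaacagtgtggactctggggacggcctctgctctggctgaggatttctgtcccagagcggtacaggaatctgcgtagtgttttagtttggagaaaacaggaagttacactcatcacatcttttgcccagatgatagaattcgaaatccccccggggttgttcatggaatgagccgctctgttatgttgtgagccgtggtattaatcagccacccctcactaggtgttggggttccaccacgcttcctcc
MEST: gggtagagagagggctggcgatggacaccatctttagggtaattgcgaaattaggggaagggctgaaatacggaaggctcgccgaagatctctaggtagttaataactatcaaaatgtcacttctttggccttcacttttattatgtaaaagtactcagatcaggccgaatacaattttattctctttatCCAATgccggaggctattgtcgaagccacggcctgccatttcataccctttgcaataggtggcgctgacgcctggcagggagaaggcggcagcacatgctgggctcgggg
KMT2C has a window dense in GC boxes, 15 matches with 88.7% G or C, and AKR1B1 has 2 GC boxes and 1 CCAAT box. The windows of CUL1 and MEST are poorer in G and C, at 50% and 49%, and hold no GC box. These 4 windows do not stand for the rest. SBDS, at 57% with no GC box, went from 144 to 72.9 CPM in DU145 (scale of the 18 libraries). PRKAG2, at 71.3% with 2 GC boxes, went from 85.8 to 79.1. A relation between these letters and the response was not tested. RefSeq's start was not checked against the starts used in these cells.

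Among the 50 matched members, 36 (72.0%) held a GC box, against 45.0% of all 35116 RefSeq promoter windows of the same length. A CCAAT box was in 22 members (44.0% against 34.6%), an NRF1 motif in 5 (10.0% against 5.8%) and a TATA box only in ZC3HAV1 (2.0% against 11.5%). The members' windows had a median of 68.8% G or C and 29 CpG dinucleotides, against 58.7% and 14 over all windows. Both strands were searched, matches that overlap were each counted, and no motif contains another. A match is a description of the letters and not a binding site. The comparison windows were not limited to protein-coding genes or to genes expressed in these lines, whereas all members are protein-coding. The differences therefore cannot be read as traits particular to the members.

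Library depth ran from 14722733 to 43311727 reads assigned to genes. EMD was at 67.2, 75.1 and 67.3 CPM (TMM-scaled within a line) in the C4-2B controls and at 8.49, 10.0 and 6.38 in knockdown, at 65.4, 69.7 and 60.9 against 21.2, 19.6 and 17.5 in 22Rv1, and at 45.1, 47.7 and 40.7 against 4.61, 4.77 and 5.01 in DU145. The knockdown libraries lay below all controls in each line, with log2 fold changes of -3.07 ± 0.11 (SE) in C4-2B, -1.73 ± 0.07 in 22Rv1 and -3.21 ± 0.08 in DU145 (edgeR quasi-likelihood adjusted p = 3.37e-14, 4.29e-14 and 1.67e-22), the smallest of the 3 in 22Rv1. Listed line markers gave a mixed picture. KLK3, the prostate-specific antigen gene, averaged 1509 CPM in C4-2B controls, 20 in 22Rv1 and 0.53 in DU145. KLK2, TMPRSS2 and FOLH1 had the same order, with TMPRSS2 not tested in DU145. VIM, a mesenchymal filament gene, averaged 2000 CPM in DU145 against 6.67 in C4-2B and 1.56 in 22Rv1, and CAV1 and S100A2 were also highest in DU145. Other listed markers went the other way. The luminal genes KRT8 and KRT18 were highest in DU145 controls (1243 and 773 CPM). EGFR, listed for DU145, was highest in 22Rv1 (893 CPM against 358), and KRT5 was not tested in DU145. Of 13 markers of fibroblasts, endothelium and blood cells, CD68 reached 94.1 CPM in DU145 controls and 29.3 in knockdown, COL1A1 reached 28.7 CPM in C4-2B and 23.1 in 22Rv1 controls, VWF reached 21.5 CPM in C4-2B controls, and the others were under 4 CPM in controls or not tested; their part in the results was not tested. The libraries are bulk, so fewer cells carrying a gene's RNA and less RNA per cell cannot be told apart.

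In DU145 the long-arm members were lower in EMD knockdown almost without exception. The median log2 fold change was -0.61, which is 65.6% of the control level, with quartiles of -0.80 and -0.41 and a range from -1.42 (AKR1B1) to 0.00 (NRF1). The edgeR quasi-likelihood threshold (Benjamini-Hochberg adjusted p under 0.05 over 19377 genes) was passed downward by 57 of 60 members and upward by 0, where 23.6% of all genes were called lower and 24.1% higher; since this contrast chose the members, nothing is read from that count. The 3 knockdown libraries lay entirely below the 3 controls for 56 members, against 26.6% of all genes, and the ranges overlapped for 4 (POR, MEST, NRF1 and PRKAG2). The 60 genes together took 0.665% to 0.676% of reads in the DU145 control libraries and 0.458% to 0.460% in the knockdown libraries.

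The same direction was present in the genes of the arm that were not chosen. Of 527 other long-arm genes tested in DU145, 307 were called lower and 22 higher, with a median log2 fold change of -0.46. Restricting them to an average of 10 CPM or more left 228 genes, of which 197 were lower and 8 higher, with a median of -0.44 and quartiles of -0.67 and -0.28. The short arm of the same chromosome did not show it: of its 308 tested genes 71 were lower and 80 higher, and their median was 0.01. In the plot along the chromosome, values were lower from around the start of the long arm on. That boundary was set at 60 Mb beforehand, and the position of the change was not estimated.

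**Figure D1:**
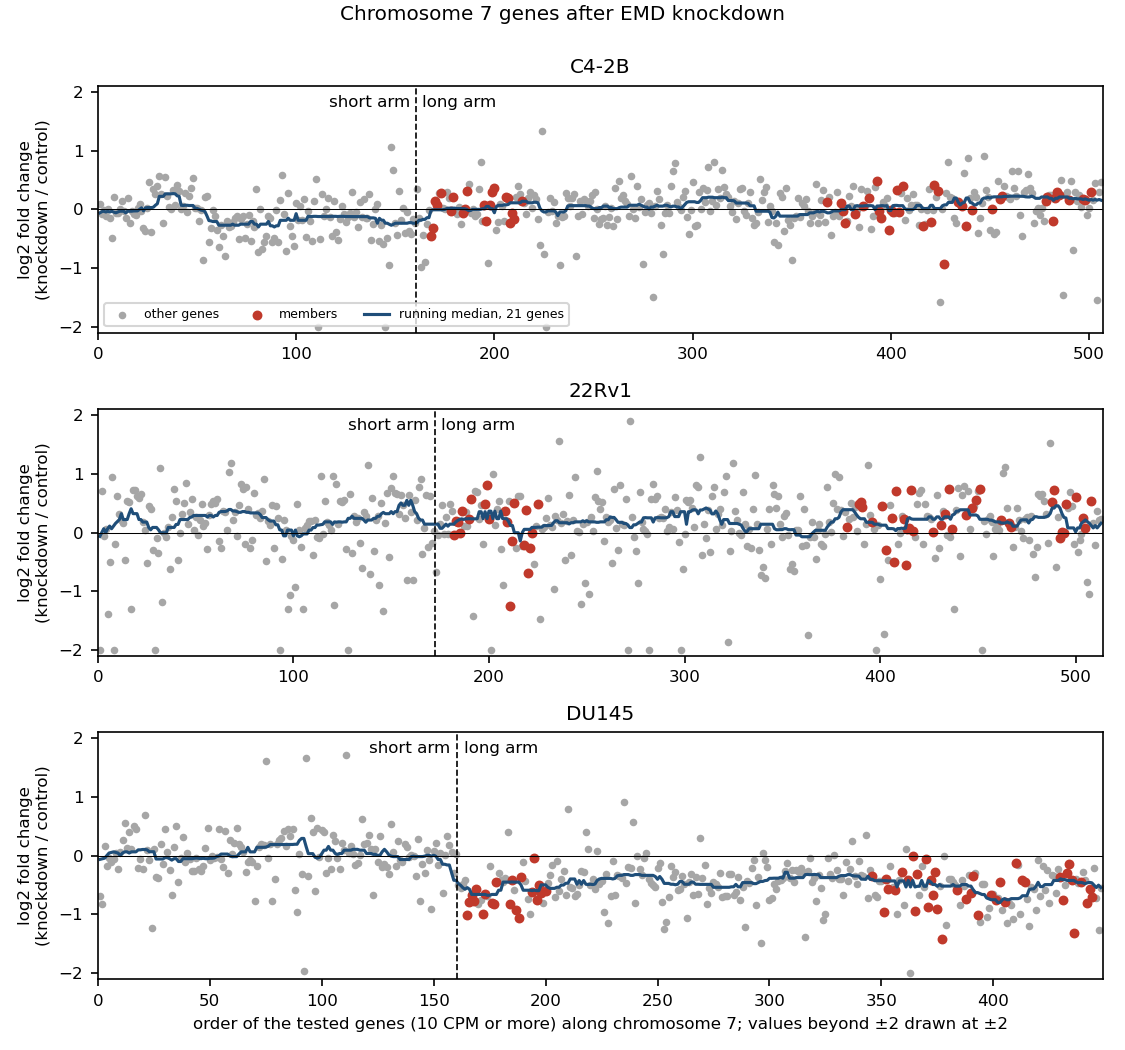
Each point is a tested gene of chromosome 7 with an average of 10 CPM or more, in order from the end of the short arm (left) to the end of the long arm (right); the y axis is the log2 fold change of EMD knockdown over control, members are red, other genes grey, the blue line is the running median over 21 genes and the dashed line is the start of the long arm. In DU145 the running median drops from near 0 to below zero around the start of the long arm and stays there. In C4-2B the short arm has a median of -0.11 and the long arm 0.06, a smaller step in the other direction. In 22Rv1 both arms are above zero (0.21 and 0.16).

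By 10 Mb bins of the genes that are no member, DU145 medians on the short arm ran from -0.04 to 0.14, and on the long arm from -0.27 between 110 and 120 Mb to -0.80 between 140 and 150 Mb. All 10 long-arm bins were below all 6 short-arm bins. Inside the proximal block the 45 other genes had a median of -0.53 beside -0.67 for the 21 members, and inside the distal block the 181 other genes had -0.52 beside -0.56 for the 39 members. The 282 genes between the blocks, where no member lies, had a median of -0.39, the 13 genes between the centromere and GUSB had -0.48, and the 6 beyond UBE3C had -0.38. In both blocks the members' median was below that of the genes between them. Of the tested genes that flank the blocks, 7 were called lower: ZNF92 (-0.48), VKORC1L1 (-0.42), SSC4D (-0.60), DTX2 (-0.47), NDUFA5 (-0.25), DNAJB6 (-0.22) and NCAPG2 (-0.73). Higher were ZP3 (0.26) and PTPRN2 (2.41, on 17 control and 96 knockdown reads), and 3 did not pass.

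Library by library the picture was alike. The median of the members against the mean of the controls was -0.62, -0.52 and -0.64 in the 3 DU145 knockdown libraries, and each of these had 59 of 60 members below zero. The other long-arm genes had -0.44, -0.38 and -0.46 in those libraries, and the short arm 0.00, 0.08 and -0.01. In the 3 DU145 controls the members' medians were -0.03, 0.03 and 0.00, but these controls are also the reference, which holds their values near 0. The members' values in DU145 are those taken to have chosen them, so they are a description.

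**Figure D2:**
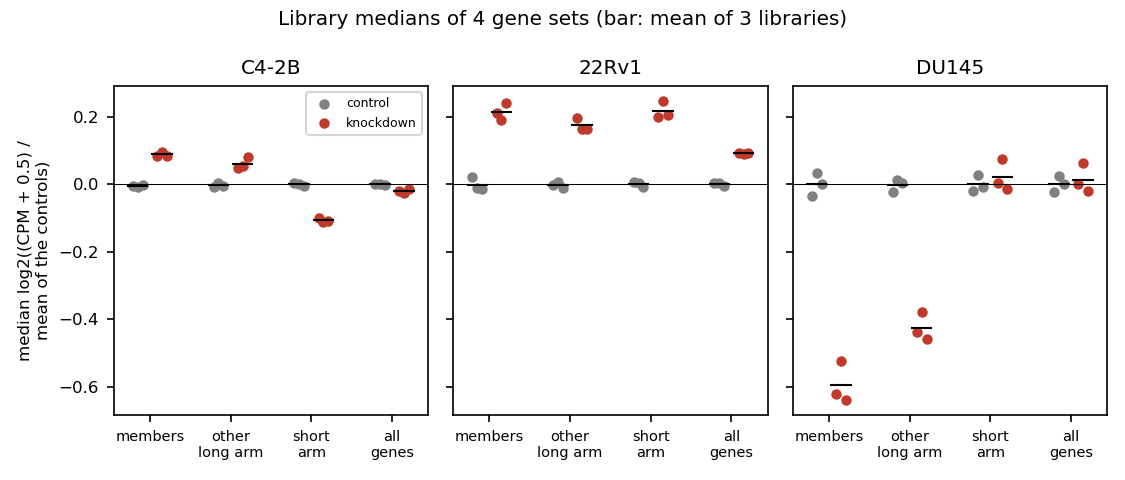
Each point is 1 library and gives the median, over a set of genes, of log2((CPM + 0.5) / mean of the controls of that line); grey is control, red is EMD knockdown and the bar is the mean of 3 libraries. In DU145 the members (-0.62, -0.52 and -0.64) and the other long-arm genes (-0.44, -0.38 and -0.46) sit below the controls, and the short arm does not.

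Chromosome 7's long arm was not the only region with a shifted median in DU145. Among genes at 10 CPM or more, chromosome 21 had a median log2 fold change of -0.47 over 114 genes, chromosome 15 had -0.37 over 313 and chromosome 20 had -0.26 over 266, against -0.44 for the 228 other long-arm genes of chromosome 7. Chromosome 8 had 0.29 over 354 genes, but with quartiles of -0.39 and 0.57. Its genes went both ways, 55.4% called higher and 35.9% lower, against 33.6% and 33.3% of all genes at 10 CPM or more. The remaining chromosomes and the short arm of chromosome 7 lay between -0.07 and 0.10. The labels do not say which cultures or passages gave the DU145 control and knockdown libraries.

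**Figure D3:**
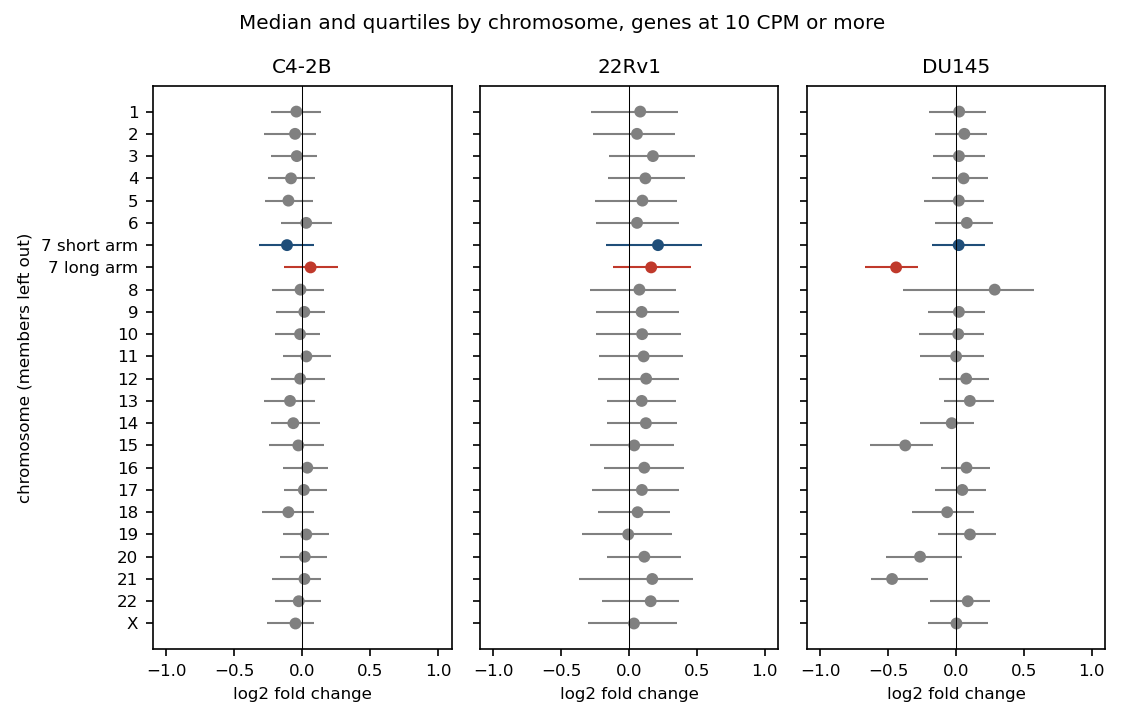
Points are the median and bars the quartiles of the log2 fold change of EMD knockdown over control for tested genes at 10 CPM or more on each chromosome, with the members left out; the long arm of chromosome 7 is red and its short arm blue. In DU145 the long arm of chromosome 7 (-0.44) stands with chromosomes 21 (-0.47), 15 (-0.37) and 20 (-0.26) below the rest. In C4-2B it is the highest of the sets plotted (0.06) and the short arm the lowest (-0.11), over a narrower range. Only chromosome 7 is split into arms.

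The members differed in how far they fell in DU145. The SD of their log2 fold changes was 0.30. It was 0.37 for the other long-arm genes and 0.43 for the short-arm genes at 10 CPM or more. Whether 1 uniform shift underlies the members' values was not tested. AKR1B1, which encodes aldose reductase, was at 129, 134 and 129 CPM in the controls and at 45.5, 52.5 and 48.7 in knockdown. That is a log2 fold change of -1.42 ± 0.05, the lowest of all members. KMT2C, a histone H3 lysine 4 methyltransferase, was at 63.0, 72.3 and 74.8 CPM against 26.0, 26.7 and 31.4 (-1.32 ± 0.08), and no knockdown library reached a control in either gene.

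HIPK2, a nuclear serine/threonine kinase, was at 264, 300.0 and 305 CPM in the controls and 140, 138 and 153 in knockdown (-1.01 ± 0.06). GTF2IRD1, a transcription factor gene of the Williams region, was at 26.9, 29 and 29.7 CPM against 12.6, 14.6 and 14.3 (-1.05 ± 0.07). GUSB, the lysosomal beta-glucuronidase often used as a reference gene in quantitative PCR, was at 73.7, 75.2 and 78.1 CPM against 36.7, 39.0 and 37.2 (-1.01 ± 0.05). In all 3 genes every knockdown library was below every control.

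SBDS, needed for maturation of the large ribosomal subunit, was at 135, 133 and 132 CPM against 67.6, 70.8 and 61.9 (-1.0 ± 0.05). SND1, a Tudor-domain nuclease and coactivator, was at 243, 252 and 241 CPM against 123, 130 and 126 (-0.96 ± 0.05). UBE2H, a ubiquitin-conjugating enzyme, was at 193, 209 and 201 CPM against 105, 114 and 96.3 (-0.94 ± 0.05). These 3 come from both blocks, and none had overlap between the groups.

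**Figure D4:**
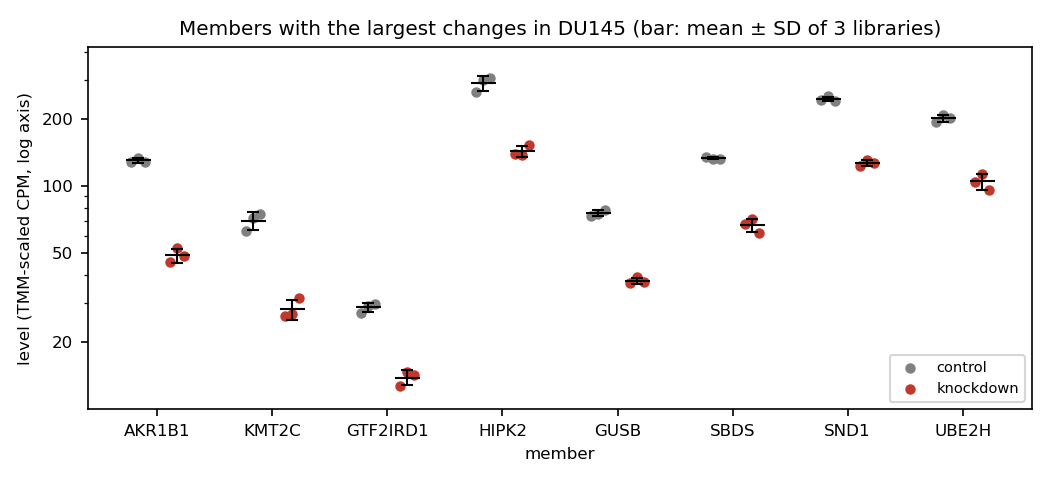
Level (TMM-scaled CPM, log axis) of the 8 members with the largest changes in DU145 in each control (grey) and EMD knockdown (red) library, with the mean and SD of 3 libraries. The knockdown libraries lie below the controls in all 8, from AKR1B1 (130 to 48.9 CPM) to UBE2H (201 to 105 CPM).

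At the other end, 3 members showed no change past the threshold in DU145. NRF1, the nuclear respiratory factor that drives genes of mitochondrial respiration, was at 22.8, 22.8 and 21.9 CPM in controls and 22.6, 21.8 and 23.3 in knockdown (0.00 ± 0.06). MEST, an imprinted gene expressed from the paternal copy, was at 64.8, 67.4 and 65.2 CPM against 65.6, 63.2 and 61.1 (-0.06 ± 0.05). POR, the reductase that passes electrons to cytochrome P450 enzymes, was at 56.6, 59.9 and 60.3 CPM against 56.4, 60 and 56.2 (-0.04 ± 0.05). In all 3 the libraries of the groups overlapped.

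MEST and POR each end beside another member that was clearly lower. COPG2, a coatomer subunit whose end overlaps that of MEST on the opposite strand, was at 35.4 ± 1.57 CPM (SD, n = 3) in DU145 controls and 19.4 ± 1.09 in knockdown (-0.87 ± 0.06, SE). TMEM120A, a nuclear envelope membrane protein encoded against the end of POR, was at 26.8 ± 2.04 against 16.0 ± 0.71 CPM (-0.75 ± 0.07). Whether reads were assigned by strand is not given in the sources used here, so reads in the overlaps of these pairs, and of SBDS with TYW1, may be split between partners. PRKAG2, a regulatory subunit of AMP-activated kinase (-0.14 ± 0.05), and CUL1, the scaffold of SCF ubiquitin ligases (-0.13 ± 0.05), were the members just past the threshold.

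Taken by role, the DU145 medians spread from -0.82 for the 8 Williams region genes to -0.42 for the 5 ubiquitin ligase and conjugating enzyme genes and the 6 genes of metabolic and mitochondrial proteins. The 7 genes nearest the centromere had -0.78, the 8 secretory and surface genes -0.70, the 5 kinase and GTPase genes -0.66 and the 6 genes distal of the Williams region -0.61. The 3 actin regulator and caspase genes had -0.58, the 6 RNA-binding and nucleolar genes -0.48 and the 6 transcription and chromatin genes -0.45. Every group had a median below zero.

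In C4-2B the same 60 genes moved in both directions. The edgeR test called 25 higher (41.7% of members, against 19.4% of the 15801 genes tested) and 12 lower (20%, against 22.3%), and 23 did not pass. Their median log2 fold change was 0.09, beside 0.01 over all genes, 0.10 for 446 other long-arm genes and -0.07 for 236 short-arm genes. The arms thus parted in C4-2B too, the opposite way from DU145. At 10 CPM or more the short arm had -0.11, below every other chromosome, and the other long-arm genes 0.06, above every other chromosome. The other chromosomes were taken whole and not by arm, and the nearest were chromosome 18 at -0.10 and chromosome 16 at 0.04. In 10 Mb bins, the short arm had 0.03 in its first bin and -0.30 to -0.10 in the other 5, and the first long-arm bin had 0.19. The knockdown libraries lay above all controls for 28 members (24.5% of all genes did so), below for 15 (26% of all genes), and overlapped for 17. Among the 10137 genes at 10 CPM or more, 22.4% were higher and 29.2% lower, with a median of -0.02. Of the 287 other long-arm genes at that level 36.6% were higher and 22.3% lower, nearer to the members' shares.

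HIPK2 fell most in C4-2B. It was at 963, 1014 and 983 CPM in the controls and at 477, 535 and 539 in knockdown, with no overlap. Its log2 fold change was -0.93 ± 0.04 (edgeR adjusted p = 7.42e-15). GUSB also fell, from 133, 137 and 131 CPM to 98.8, 96.7 and 98.6 (-0.45 ± 0.05, edgeR adjusted p = 1.03e-08), and so did MEST, from 73.2, 73.3 and 75 CPM to 59.5, 57.5 and 56.3 (-0.35 ± 0.06, edgeR adjusted p = 1.01e-05). HIPK2 and GUSB were among the lowest members in DU145 as well, whereas MEST was not.

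The members that rose most in C4-2B included 2 transcriptional regulators. NRF1 was at 25.2, 23.3 and 23.4 CPM against 35.5, 32.8 and 31.4 (0.47 ± 0.08, edgeR adjusted p = 4.53e-05), and UBN2, a subunit of the HIRA histone chaperone complex, at 47.3, 51.0 and 51.0 CPM against 58.9, 69.2 and 70.7 (0.41 ± 0.07, edgeR adjusted p = 2.03e-05). EXOC4, an exocyst subunit that tethers secretory vesicles, was at 139, 140 and 139 CPM against 187, 183 and 181 (0.40 ± 0.04, edgeR adjusted p = 1.23e-08), and GTF2I, the general transcription factor TFII-I of the Williams region, at 270, 277 and 269 CPM against 336, 368 and 347 (0.37 ± 0.04, edgeR adjusted p = 3.38e-08). None of these 4 had overlap between the groups.

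AKR1B1, abundant in DU145, was close to absent from C4-2B, at 0.33, 0.10 and 0.44 CPM in controls and 1.28, 1.85 and 1.58 in knockdown. The difference rests on 18 control reads and 78 knockdown reads over 3 libraries each (2.37 ± 0.53, edgeR adjusted p = 0.000767). In 22Rv1 it had 5 and 3 reads over 3 libraries each and was not tested.

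By role in C4-2B, where 19.4% of all genes were called higher and 22.3% lower, 4 of the 6 transcription and chromatin genes rose and 0 fell, and 5 of the 8 secretory and surface genes rose and 0 fell, among them PODXL, a surface sialomucin (0.33 ± 0.05, edgeR adjusted p = 2.12e-05), and GALNT11, which starts O-linked glycans (0.29 ± 0.05, edgeR adjusted p = 5.19e-05). The metabolic and mitochondrial genes went both ways, with 2 higher and 3 lower. Of the kinase and GTPase genes 0 rose and 2 fell: HIPK2, and RHEB, the GTPase that activates mTORC1 (-0.20 ± 0.04, edgeR adjusted p = 0.000827). BRAF, the kinase upstream of MEK, was at 73.9 ± 1.77 CPM (SD, n = 3) in controls and 80.1 ± 2.82 in knockdown and did not pass (edgeR adjusted p = 0.0785).

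In 22Rv1 more members rose than fell. Of 59 tested, 37 were called higher (against 33.5% of the 16656 genes tested), 7 lower (against 34.3%) and 15 neither (31 higher and 11 lower when reads were scaled by library totals), with a median log2 fold change of 0.22 beside 0.00 over all genes. Among the 10527 genes at 10 CPM or more the median was 0.09, with 45.4% higher and 30.4% lower. At that level 52.8% of the other long-arm genes and 56.4% of the short-arm genes were higher, nearer to the members' 62.7%. The 282 other long-arm genes at 10 CPM or more had a median of 0.16 and the 172 short-arm genes 0.21, so the long arm did not differ from the short arm in direction. The groups did not overlap for 38 members with knockdown above (35.1% of all genes did so) and 8 below (35.9%), and overlapped for 13.

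CLIP2, a Williams region gene for a microtubule-binding linker protein, changed most in 22Rv1. It was at 271, 251 and 256 CPM in controls and at 105, 113 and 111 in knockdown. Its log2 fold change was -1.24 ± 0.04 (edgeR adjusted p = 1.27e-15), the opposite of most of its neighbours. TMEM120A fell as well, from 74.1, 85.8 and 75.7 CPM to 49.3, 44.7 and 50.9 (-0.69 ± 0.06, edgeR adjusted p = 8.21e-09).

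The other 6 of the largest changes in 22Rv1 were rises. BCL7B, a subunit of BAF chromatin remodelling complexes, was at 40.1, 37.2 and 40.0 CPM against 68.5, 67.9 and 70.5 (0.81 ± 0.05, edgeR adjusted p = 5.4e-11). LUC7L2, a splicing factor of the U1 particle, was at 118, 107 and 110 CPM against 183, 184 and 195 (0.74 ± 0.04, edgeR adjusted p = 7.5e-12). CASP2, an initiator caspase, was at 43.2, 35.6 and 40.9 CPM against 67.3, 63.9 and 70.2 (0.74 ± 0.06, edgeR adjusted p = 3.62e-09). In each, the lowest knockdown library was above the highest control.

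CHPF2, which extends chondroitin chains, was at 51.9, 48.9 and 42.1 CPM against 76.2, 76.8 and 83.4 (0.73 ± 0.07, edgeR adjusted p = 7.15e-08). CHCHD3, a protein of the mitochondrial cristae junction, was at 65.1, 66.6 and 64.5 CPM against 110, 108 and 105 (0.72 ± 0.05, edgeR adjusted p = 2.07e-11). ZC3HC1, an F-box-like protein of the nuclear pore basket, was at 14.8, 14.1 and 14.0 CPM against 23.1, 24.6 and 22.5 (0.71 ± 0.08, edgeR adjusted p = 2.9e-07). The groups did not overlap in these genes either.

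By role in 22Rv1, where 33.5% of all genes were called higher and 34.3% lower (45.4% higher at 10 CPM or more), 5 of 6 RNA-binding and nucleolar genes rose and 0 fell, with a median of 0.51, and 5 of 6 transcription and chromatin genes rose and 0 fell, with a median of 0.28. Of the 6 genes distal of the Williams region 2 rose and 3 fell: RHBDD2, TMEM120A and STYXL1. Among the 8 Williams region genes 6 rose, 1 (CLIP2) fell and GTF2IRD1 did not pass. KMT2C, so much lower in DU145, rose in 22Rv1 from 68.4 ± 5.71 to 96.5 ± 4.02 CPM (SD, n = 3; 0.49 ± 0.06, SE, edgeR adjusted p = 2.02e-07), and in C4-2B its values overlapped between the groups.

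**Figure D5:**
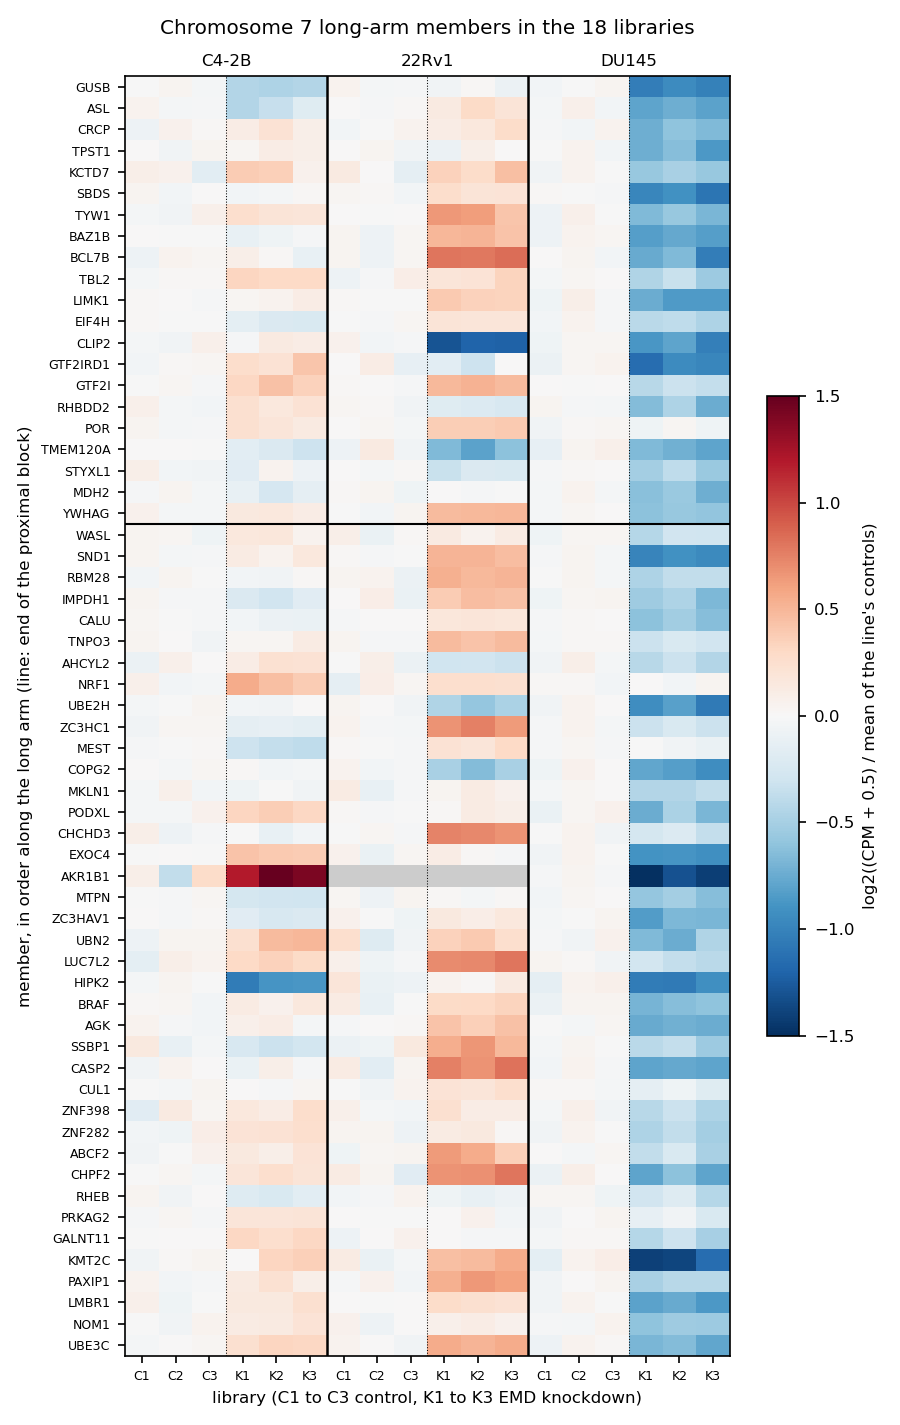
Rows are the 60 members in order along the long arm, with a line between the proximal and distal blocks; columns are the 18 libraries (C1 to C3 control, K1 to K3 EMD knockdown), and colour is log2((CPM + 0.5) / mean of the line's controls), blue lower and red higher, with grey where a gene was not tested. The DU145 knockdown columns are blue for nearly every member, whereas C4-2B and 22Rv1 show a mixture, with HIPK2 in C4-2B (-0.93) and CLIP2 in 22Rv1 (-1.24) the strongest blue rows there.

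The responses of C4-2B and 22Rv1 differed from each other for most members. In a fit of all 18 libraries, the response of C4-2B was above that of 22Rv1 for 14 members and below it for 30 (edgeR, adjusted p under 0.05), where 29.1% and 27% of 17152 genes were called in those directions. The median difference was -0.15 (-0.071 under library totals), beside 0.06 over all genes. CLIP2 (1.37 ± 0.10, edgeR adjusted p = 2.4e-13) and HIPK2 (-0.95 ± 0.12, edgeR adjusted p = 5.6e-06) were each moved by more than 0.9 on the log2 scale in 1 of these lines and by less than 0.1 in the other.

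For 8 members the calls in the separate fits of C4-2B and 22Rv1 were opposite and the difference itself passed. Of all genes tested, 19.4% were called higher and 22.3% lower in C4-2B, and 33.5% and 34.3% in 22Rv1. Opposite calls were not counted over all genes, so the number is not read as a trait of the members. SSBP1, which coats single-stranded mitochondrial DNA, fell in C4-2B from 195, 163 and 172 CPM to 149, 140 and 146, and rose in 22Rv1 from 73.3, 74.4 and 86.2 CPM to 114, 123 and 109 (difference -0.79, edgeR adjusted p = 8.45e-08). IMPDH1, an enzyme of guanine nucleotide synthesis, fell in C4-2B from 174, 168 and 168 CPM to 146, 139 and 151, and rose in 22Rv1 from 129, 137 and 120 CPM to 168, 177 and 175 (difference -0.61, edgeR adjusted p = 2.24e-09). In both genes and both lines the control and knockdown libraries were apart.

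MEST fell in C4-2B, as above, and rose in 22Rv1 from 124, 121 and 121 CPM to 141, 138 and 149 (difference -0.54, edgeR adjusted p = 2.37e-08). ASL, argininosuccinate lyase of arginine synthesis, fell in C4-2B from 61.9, 58.4 and 58.8 CPM to 44.0, 46.7 and 52.7 and rose in 22Rv1 from 51.0, 50.1 and 51.4 CPM to 55.7, 62.2 and 58.4 (difference -0.47, edgeR adjusted p = 1.57e-05). Its call in 22Rv1 was lost under library totals (adjusted p = 0.0539). EIF4H, a helper of the translation helicase eIF4A, fell in C4-2B from 845, 832 and 837 CPM to 756, 723 and 716 and rose in 22Rv1 from 629, 627 and 644 CPM to 726, 721 and 718 (difference -0.34, edgeR adjusted p = 1.08e-06). These opposite changes were small but larger than the spread of the libraries.

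ZC3HAV1, an antiviral protein that binds CpG-rich RNA, fell in C4-2B from 119, 117 and 120 CPM to 106, 101 and 102; in 22Rv1 it went from 82.9, 78.7 and 75.6 CPM to 87.6, 84.6 and 87.9 (difference -0.30, edgeR adjusted p = 0.000391), and its call in 22Rv1 was lost when reads were scaled by library totals (adjusted p = 0.333), in the fit of all 18 libraries (adjusted p = 0.118) and when control 3, knockdown 1 or knockdown 3 was left out (adjusted p from 0.0794 to 0.0931). RHBDD2, a rhomboid-family membrane protein, rose in C4-2B from 142, 132 and 131 CPM to 159, 151 and 157 and fell in 22Rv1 from 135, 133 and 127 CPM to 116, 115 and 111 (difference 0.46, edgeR adjusted p = 5.06e-07). AHCYL2, a relative of S-adenosylhomocysteine hydrolase, rose in C4-2B from 52.2, 58.6 and 55.6 CPM to 59.9, 65.0 and 64.7 and fell in 22Rv1 from 46.6, 49.7 and 44.1 CPM to 37.9, 38.4 and 37.3 (difference 0.54, edgeR adjusted p = 3.03e-06). Its rise in C4-2B did not pass when control 1, control 3, knockdown 2 or knockdown 3 was left out (adjusted p from 0.055 to 0.0964).

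Set against the other lines, DU145 had the lowest of the 3 log2 fold changes for 57 of the 59 members tested in all. The exceptions were the lowest in C4-2B (MEST) and in 22Rv1 (CLIP2). DU145 less the mean of the other 2 responses had a median of -0.65 over the members, -0.47 over 484 other long-arm genes, 0.11 over 275 short-arm genes and 0.08 over all 17152 genes. The difference passed the threshold downward for 58 members and upward for 0, where 22.2% and 28.3% of all genes were called; this comparison uses the DU145 libraries that chose the members and is a description. Across the 59 members the responses of C4-2B and 22Rv1 had Pearson's r = 0.133 and Spearman's rho = 0.144, and DU145 had r = 0.14 with C4-2B and r = 0.2 with 22Rv1. The genes share their libraries and are not independent replicates, and these values are a description.

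Control levels did not set the members of DU145 apart in the way its response did. In the fit of all 18 libraries, the control level of DU145 less the mean of the other lines had a median of -0.13 over the members, with 24 called higher and 31 lower, where 42.6% and 41.9% of all genes were called in those directions (16 higher and 37 lower, with a median of -0.30, under library totals). It was -0.37 against C4-2B and 0.26 against 22Rv1. The lowest control level of the 3 lines was in 22Rv1 for 34 members, in DU145 for 20 and in C4-2B for 6. The medians of the 484 other long-arm genes were -0.33 against the mean of both lines, -0.50 against C4-2B and -0.20 against 22Rv1.

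Single members had large differences between lines before any knockdown. AKR1B1 averaged 141 ± 4.43 CPM (SD, n = 3, scale of the 18 libraries) in DU145 controls, 0.29 ± 0.17 in C4-2B and 0.08 ± 0.07 in 22Rv1. HIPK2 averaged 974 ± 25.8 CPM in C4-2B controls, 313 ± 27.0 in DU145 and 153 ± 17.7 in 22Rv1. CLIP2 averaged 259 ± 12.2 CPM in 22Rv1 controls, 32.9 ± 1.58 in DU145 and 10.6 ± 0.55 in C4-2B. AKR1B1 in DU145, HIPK2 in C4-2B and CLIP2 in 22Rv1 each showed the greatest fall of a member in the line whose controls held the most of it. These 3 genes do not stand for the rest, and HIPK2 also fell in DU145 (-1.01, against -0.93 in C4-2B). KMT2C was highest in C4-2B controls at 262 ± 9.17 CPM, and lay at 75.7 ± 7.41 in DU145 and 68.4 ± 6.16 in 22Rv1, a pair that did not differ beyond its spread. Its response was 0.24 in C4-2B, which did not pass, and -1.32 in DU145.

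Several members have near-identical copies or overlapping entries, so their counts are less certain. GTF2I has the copies GTF2IP1 and GTF2IP4, listed in the C4-2B and 22Rv1 tables and not in the DU145 table; in 22Rv1 they rose by 0.25 and 0.23 (edgeR adjusted p = 5.16e-05 and 0.000104) beside 0.50 for GTF2I. In C4-2B the copies had -0.01 and -0.08 (edgeR adjusted p = 0.87 and 0.266) beside 0.37 for GTF2I. GTF2IRD2 and GTF2IRD2B, relatives of GTF2IRD1 in the same region, had -0.73 and -0.72 in DU145. ABCF2 shares its locus with a readthrough entry that went from 15.6 ± 2.92 to 45.7 ± 7.10 CPM (SD, n = 3) in 22Rv1 (log2 fold change 1.52, edgeR adjusted p = 0.000162), while ABCF2 itself had 0.53. Of the copies away from the arm, GUSBP11, a copy of part of GUSB, had 0.45 in DU145, and LUC7L, a paralogue of LUC7L2, had 0.36. Both rose in the other lines too, GUSBP11 by 0.55 in C4-2B and 0.71 in 22Rv1, and LUC7L by 0.41 and 0.68. Their rise is thus not particular to DU145.

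Of 15 tested Williams region genes that are no member, 9 were called lower and 1 higher in DU145: FZD9, BUD23, DNAJC30, STX1A, ABHD11, CLDN4, NSUN5, NCF1 and RFC2 were lower and CLDN3 was higher. Over all genes tested in DU145 23.6% were lower and 24.1% higher. Of the 527 other long-arm genes, which include these, 58.3% were lower and 4.17% higher. In C4-2B 4 were higher and 1 lower of 15 (19.4% and 22.3% of all genes), and in 22Rv1 6 were higher and 6 lower of 14 (33.5% and 34.3%). The counts are thus not read as particular to the Williams region. RFC2, a subunit of the clamp loader of DNA replication, had -0.59 in DU145, -0.91 in C4-2B and 0.54 in 22Rv1. CLDN4, a tight junction gene, had -1.5 in DU145, 0.81 in C4-2B and -0.90 in 22Rv1.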

How the data were processed

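RNA was sequenced from 18 libraries of 3 prostate cancer lines, 3 control and 3 EMD knockdown libraries per line. The deposited tables hold RSEM expected counts per gene, made with STAR and RSEM 1.3.1 on GRCh38 per the submitters' processing notes; the annotation release and strandedness are not given in the sources used here. The expected counts are whole numbers as deposited, so rounding changed nothing. Spike-in entries and second copies of pseudoautosomal genes in the DU145 table, at most 0.0512% of reads, were left out. The members and gene lists were chosen with earlier results of these data known.

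Each line's whole table kept genes passing filterByExpr at a minimum count of 10 and a total of 15. TMM factors scaled the libraries, and the test was edgeR's robust quasi-likelihood F test (edgeR 4.0.16, R 4.3.3), with Benjamini-Hochberg adjustment over all genes tested in the line and a threshold of 0.05; an adjusted p in the text comes from this test. Differences between lines came from 1 edgeR fit of all 18 libraries over the genes in all 3 tables. Log2 values of single libraries used a pseudocount of 0.5. Errors beside fold changes are SE, those beside levels are SD.

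Positions came from GENCODE (GRCh38) by Ensembl identifier, with 60 Mb as the boundary of the short arm, and promoters from RefSeq. The code was tested on simulated data. Replicates differed by more than sampling noise. Library values are given for EMD, for the 8 members with the largest changes in each line among those past the threshold without overlap of control and knockdown libraries, and for members with opposite calls in C4-2B and 22Rv1; a few others (NRF1, MEST and POR in DU145) were chosen after their values were seen. Alternatives were DESeq2 1.42.0, RLE size factors, library totals, no count filter, a fit of all libraries, a replicate block, leaving out each library and, chosen after seeing the data, ABCF2 summed with its readthrough entry.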

Additional observations from a re-analysis of the deposited data

Results flagged for a closer look

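For 8 members the calls in the separate fits of C4-2B and 22Rv1 were in opposite directions, and the difference between the responses passed the test in the fit of all 18 libraries. In that fit ZC3HAV1 in 22Rv1 was itself not called (0.09, adjusted p = 0.118). Under other settings 1 of the 2 calls was also lost for ASL (22Rv1, library totals) and AHCYL2 (C4-2B, single libraries left out). On the log2 scale, C4-2B less 22Rv1, the differences were -0.47 for ASL, -0.34 for EIF4H, -0.61 for IMPDH1, -0.54 for MEST, -0.30 for ZC3HAV1 and -0.79 for SSBP1, all lower in C4-2B. They were 0.46 for RHBDD2 and 0.54 for AHCYL2, both higher in C4-2B. Opposite calls were not counted over all genes, so the number 8 is not read as a trait of the members. Line and batch label coincide, so the line cannot be told apart from the batch.

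The median over the members of the DU145 response less the mean of the other 2 lines was -0.65. This difference was not tested, because the DU145 libraries were used to choose the members.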

How the results depend on the processing

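No setting turned the direction of a result. Of 675 values for named genes under the alternatives, 665 kept their direction and their side of the threshold and 10 no longer passed: AHCYL2 in C4-2B with control 1 or 3 or knockdown 2 or 3 left out, ASL in 22Rv1 with library totals (adjusted p = 0.0539), and ZC3HAV1 in 22Rv1 with library totals (adjusted p = 0.333), in the fit of all 18 libraries (0.118) and with control 3 or knockdown 1 or 3 left out (0.0794 to 0.0931). Scaling by library totals moved the members' median to 0.15 in C4-2B and 0.14 in 22Rv1, changed the 22Rv1 calls from 37 higher and 7 lower to 31 and 11, moved the median of C4-2B less 22Rv1 to -0.071, and changed the control level of DU145 from 24 higher and 31 lower to 16 and 37 with a median of -0.30. With RLE size factors that control median was -0.083. The fit of all 18 libraries put the 22Rv1 median at 0.17, and summing ABCF2 with its readthrough entry put the C4-2B median at 0.076. Restricted to genes at 10 CPM or more, the other long-arm and short-arm medians were 0.062 and -0.11 in C4-2B and 0.16 and 0.21 in 22Rv1. With bins of 5 Mb the lowest short-arm bin in DU145 had -0.16. The cause of these shifts was not tested, other than the smaller set of genes in the last 2.

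Leaving out each library in turn gave C4-2B medians from 0.081 to 0.11. For 22Rv1 the range was 0.20 to 0.24, and for DU145 it was -0.62 to -0.55. C4-2B then had 19 to 23 members higher and 12 to 13 lower, 22Rv1 had 34 to 39 and 7 to 8, and DU145 had 0 and 55 to 56. With the replicate number as a block, the calls were 25 higher and 12 lower in C4-2B, 37 and 7 in 22Rv1 and 0 and 57 in DU145. The numbers do not pair the samples: same-numbered control and knockdown libraries had correlations of deviations from -0.186 to 0.0774. Depth limits AKR1B1 outside DU145, where it had few reads.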
